A study of Mus musculus with 6 samples.

Results

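The genes described here encode proteins of mitosis and chromosome segregation. They are 47 mouse genes for mitotic cyclins and their kinase, the spindle checkpoint, kinesins, the centromere, condensin and cohesin. The genes were chosen by gene symbol, with earlier results of these data known. Of the 47 genes, 41 had at least 1 probe set whose only gene symbol was theirs. These made 53 probe sets in all among 12488 on the array. Ccnb1, Cdc25b, Bub1b, Cenpf, Hmmr and Smc1a were not analysed here.

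Lungs of mouse embryos at E11.5, when side branches are forming, were dissected into a branching region, taken from the lungs of both sides, and a non-branching region, made up of the 2 main bronchi with some of the trachea. Total RNA was hybridised to 1 array per sample, 3 for each region. The labels give no strain, treatment or genetic change for either region. Nor do they state that the 3 samples of a region are from different embryos or litters. The p-values therefore refer to the spread among these samples alone, and that spread may be technical.

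Cyclin-dependent kinase 1 (Cdk1) drives cells into mitosis when it is bound by A- and B-type cyclins. The chromosomes are condensed, held together by cohesin and attached through the kinetochore to spindle microtubules. The spindle checkpoint holds back the anaphase promoting complex, a ubiquitin ligase, until every chromosome is attached, after which sister chromatids part and the central spindle directs cleavage of the cell. Many of these genes are transcribed mainly in the G2 and M phases, and their RNA is widely used as a sign of dividing cells. In the embryonic lung, the buds at the tips of the airway tree are known as sites of growth.

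The promoters of many mitotic genes carry a CCAAT box, bound by the factor NF-Y, and a cell cycle genes homology region (CHR), bound by repressor and activator complexes that act in turn over the cell cycle. These elements are shown because they are the best known sequence feature that such genes share. The stretches below are the 120 bases before the transcription start in RefSeq's annotation of GRCm38.p6, written 5′ to 3′ on the gene's strand, for the 5 members with a limma adjusted p under 0.10 and a start within 250 bases of the gene's outer end. Capitals mark the letters TTTGAA of the CHR and CCAAT of the CCAAT box, on either strand. Prc1 has a pair of annotated starts and the downstream one is shown.
Prc1, chr7:80294356-80294475, plus strand: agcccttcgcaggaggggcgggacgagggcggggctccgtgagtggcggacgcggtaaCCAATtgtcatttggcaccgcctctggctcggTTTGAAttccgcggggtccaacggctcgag
Cks2, chr13:51645112-51645231, plus strand: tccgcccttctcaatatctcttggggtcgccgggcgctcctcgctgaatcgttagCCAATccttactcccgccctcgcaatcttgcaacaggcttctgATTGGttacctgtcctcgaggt
Racgap1, chr15:99651657-99651776, minus strand: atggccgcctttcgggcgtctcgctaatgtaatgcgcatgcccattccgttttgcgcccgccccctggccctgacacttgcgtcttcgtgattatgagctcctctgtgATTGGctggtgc
Cdc20, chr4:118437344-118437463, minus strand: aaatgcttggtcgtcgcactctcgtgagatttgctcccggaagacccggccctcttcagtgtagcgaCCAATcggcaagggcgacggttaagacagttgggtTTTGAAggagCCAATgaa
Nek2, chr1:191821353-191821472, plus strand: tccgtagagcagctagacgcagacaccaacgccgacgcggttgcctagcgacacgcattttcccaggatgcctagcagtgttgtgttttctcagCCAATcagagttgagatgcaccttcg

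Counting the base before the start as -1, the CHR letters lay at -30 to -25 in Prc1 and at -18 to -13 in Cdc20. In Racgap1 they lay just after the start, at 6 to 11, outside the printed stretch, while its inverted CCAAT box lay at -12 to -8. Cks2 and Nek2 had CCAAT boxes but no TTTGAA in the window searched, which ran from 250 bases before to 50 bases after the start. Of the 31 analysed members with such a window, 20 (64.5%) held TTTGAA on either strand, against 18.5% of 17492 protein-coding genes with a window. Within 50 bases on either side of the start, 18 of the 31 (58.1%) held it, against 4.58% of protein-coding genes. CCAAT was found in 25 of the 31 members (80.6%), against 42.3% of protein-coding genes, and both motifs in 19 (61.3%), against 7.4%. In 0 of the 31 members did a TTTGAA and a CCAAT match share letters. A match describes the sequence and was not tested as a site of binding. Among the 20 members with a window whose branching values all lay above the non-branching ones, 14 held TTTGAA, and among the other 11 members, 6 did.

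**Figure D1:**
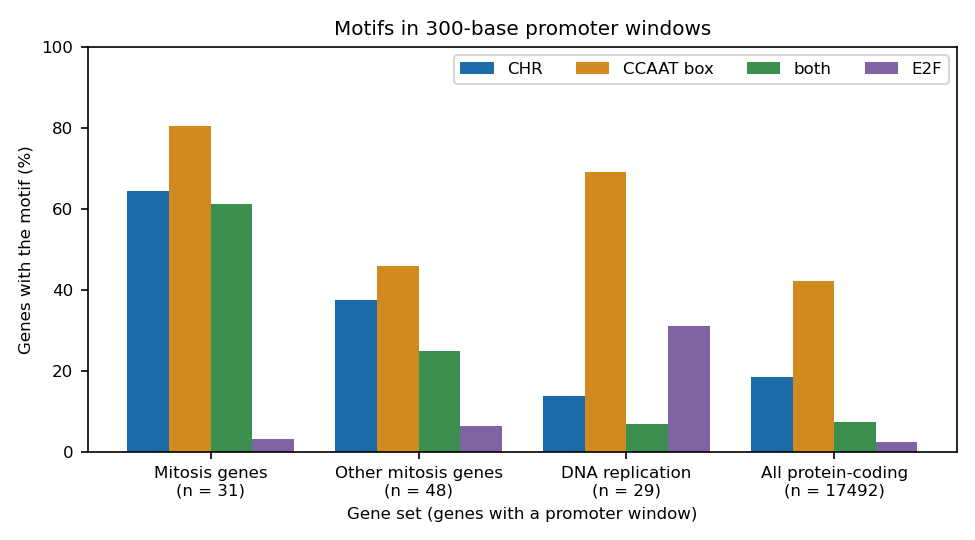
Share of genes (percent, vertical axis) whose 300-base promoter window holds the CHR letters TTTGAA, the CCAAT box, both, or an E2F motif (TTTGGCGC or TTTCCCGC), on either strand, in 4 gene sets. The mitosis genes had the CHR in 64.5% of windows, and the DNA replication genes in 13.8%.

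The DNA replication genes, which are switched on earlier in the cell cycle, were read in the same windows. CCAAT was found in 20 of 29 (69%), TTTGAA in 4 of 29 (13.8%) and an E2F motif, TTTGGCGC or TTTCCCGC on either strand, in 9 of 29 (31%). An E2F motif was found in 1 of the 31 mitosis genes (3.23%) and in 2.31% of protein-coding genes.

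The values are the intensities of probe sets, groups of short oligonucleotides designed to read the RNA of a gene, on a linear scale as deposited. They were compared as log2 values with a floor of 16, and differences are branching minus non-branching with the standard error (SE) of limma's moderated fit over 9316 probe sets, in which a Benjamini-Hochberg adjusted p under 0.05 is called. All arrays had medians within 212 to 221 in branching and 217 to 229 in non-branching. Non-branching replicate 2 had the highest control signal, a median over bacterial and yeast probe sets of 78.8 (against 19.8 to 40.7 on the other 5 arrays), and non-branching replicate 3 the largest 3′ to 5′ difference of the actin controls (0.749, against 0.198 to 0.485). The background level was 147, the 95th percentile of the control values. Of the 41 genes, 40 were above it on all 6 arrays, and Cenpe was the exception. A gene with several probe sets is represented by its brightest probe set (highest mean log2 signal). Of the 47 member probe sets tested, 39 were of a more specific and 8 of a less specific design, by the letter in their name. A less specific probe set represented 6 of the genes. Of the epithelial genes, Cdh1, Krt8, Krt18, Foxa2 and Shh were above background on all arrays. Sftpc was above it on 3 branching and 2 non-branching arrays, and Epcam and Krt19 on 1 array each. Of the mesenchymal genes, Col1a1, Col1a2, Col3a1, Pdgfra and Eln were above it on all arrays, and Vim on 1 branching and 3 non-branching arrays. Whether these genes set lung apart from other tissues was not tested.

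Most mitosis genes had a slightly higher signal in the branching region. The mean was higher in branching for 39 of 41 genes (95.1%), against 49.6% of all probe sets tested, and the median log2 difference was 0.40, a 1.32-fold difference, against -0.0046 over all probe sets tested. The middle 50% of the members lay between 0.25 and 0.53, and the middle 50% of all probe sets between -0.28 and 0.26. In 25 of the 41 genes (61.0%) the 3 branching values all lay above the 3 non-branching values, as they did in 9.79% of all probe sets tested. The differences were small. Among the 39 genes with a higher mean, 11 differed by more than 0.5 on the log2 scale, 20 by 0.25 to 0.5 and 8 by less than 0.25, and Prc1, at 1.82-fold, differed most. Single genes seldom passed the test. Of 47 member probe sets tested, 2 were called higher in branching (4.26%) and 0 lower, against 0.902% and 1.13% of all probe sets tested. At an unadjusted p under 0.05, 22 of the 41 genes were higher and 1 lower, against 6.92% and 7.70% of all probe sets. At an adjusted p under 0.10, 7 were higher, against 1.76% of all probe sets. These measurements of bulk tissue cannot tell a larger share of dividing cells from more RNA per cell.

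**Figure D2:**
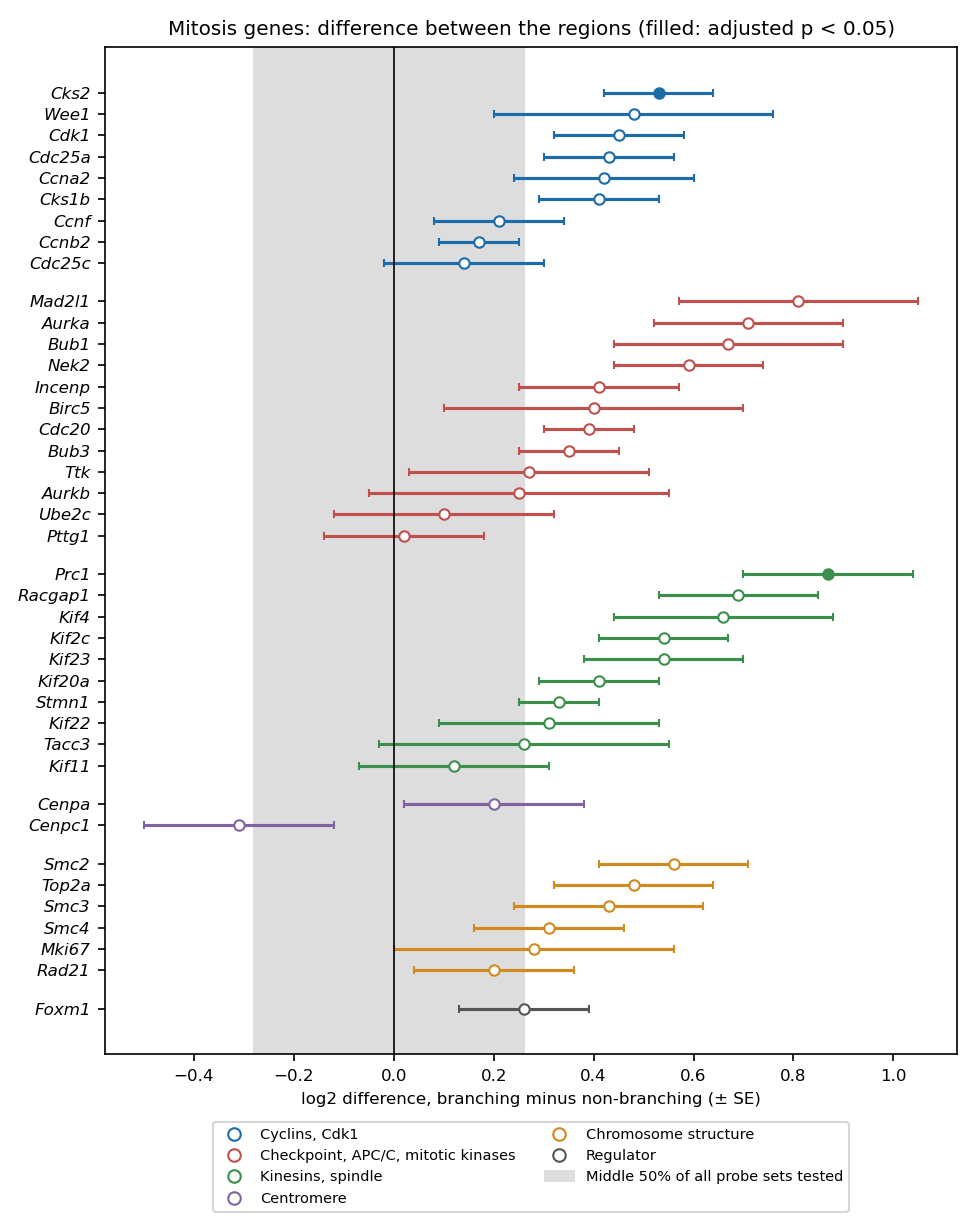
Log2 difference (branching minus non-branching, points, with SE bars) of 40 mitosis genes, grouped by role, with called genes filled. The grey band holds the middle 50% of all probe sets tested, -0.28 to 0.26. All points but Cenpc1 lie right of 0, and Prc1 is farthest right at 0.87. Cenpe, below background, is left out.

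**Figure D3:**
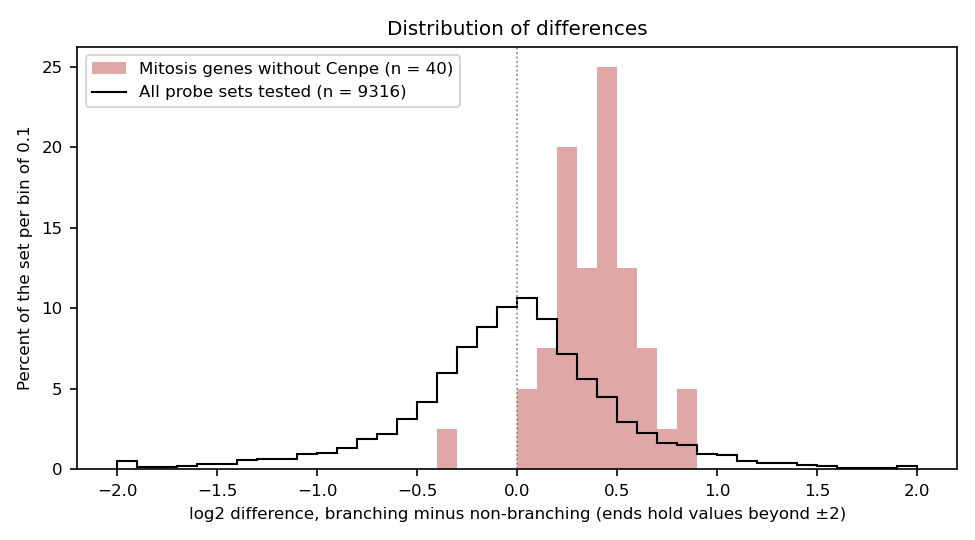
Distribution of log2 differences, as the percent of each set in bins of 0.1, for 40 mitosis genes (filled) and all 9316 probe sets tested (line). The medians are 0.40 for the mitosis genes, with Cenpe, and -0.0046 for all probe sets.

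The same direction was seen array by array. With each gene's log2 signal set against its own mean over the 6 arrays, the median member stood at 0.16, 0.19 and 0.22 on branching replicates 1 to 3, and at -0.10, -0.19 and -0.23 on the non-branching replicates. The same median over all probe sets tested lay between 0.01 and 0.04 on each array. The highest of a gene's 6 values was on a branching array in 36 of the 41 genes, and the lowest on a non-branching array in 36. With any 1 array left out, 37 to 39 of 40 or 41 genes had a higher mean in branching and the median difference was 0.37 to 0.43. Leaving out the array with the highest control signal gave 0.38, and the one with the largest actin difference 0.39. Single genes moved more. In 17 of 40 genes, leaving out at least 1 array moved the difference by more than 1.5 times, and 1 of these, Mad2l1, was among the 11 genes that differed by more than 0.5.

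**Figure D4:**
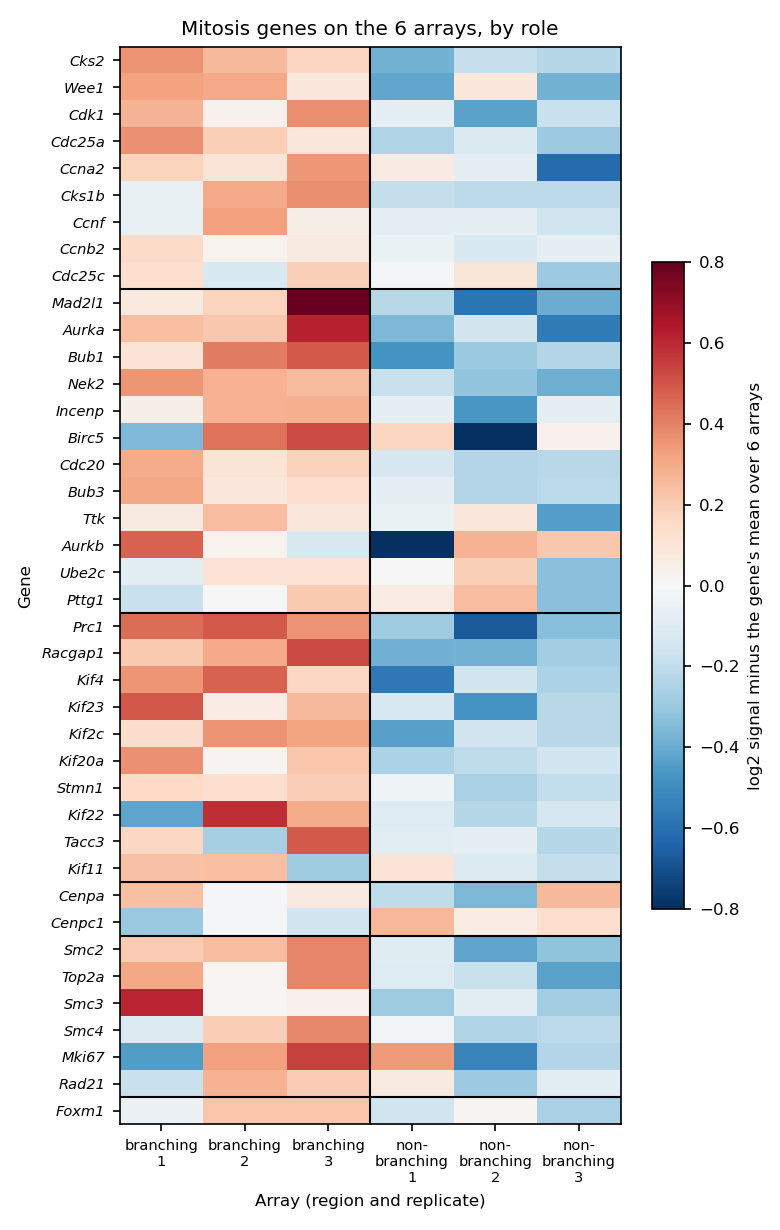
Log2 signal of 40 mitosis genes (rows, by role) on the 6 arrays (columns), minus each gene's mean over the arrays. Red is above and blue below that mean. The branching columns are mostly red and the non-branching columns mostly blue, with exceptions such as Cenpc1 and, on branching replicate 1, Mki67, Birc5 and Kif22.

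The 9 genes for mitotic cyclins, Cdk1 and its regulators all had a higher mean in branching, with a median log2 difference of 0.42. In 8 of them all branching values lay above the non-branching ones, as in 9.79% of all probe sets tested. Cks2 (Entrez gene 66197), a small subunit that binds cyclin-dependent kinases, was the 1 that was called. Its signal was 2921, 2730.3 and 2563 on branching replicates 1 to 3, against 1755, 2003 and 1946.5 on the non-branching replicates. Every branching value was above every non-branching value. It rose by 0.53 ± 0.11 log2 units (SE over 3 arrays a region, limma adjusted p = 0.0398), a 1.44-fold difference. The call was lost with any 1 of the 6 arrays left out (adjusted p 0.0949 to 0.139) and with the replicate number as a block (adjusted p = 0.118).

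Its close relative Cks1b, which also helps a ubiquitin ligase to recognise the inhibitor p27, had 3585, 4612 and 4835 in branching, against 3276, 3240.2 and 3236 in non-branching. The non-branching values lay close together and below the lowest branching value, but the difference of 0.41 ± 0.12 did not pass (limma adjusted p = 0.145). Without branching replicate 1, the lowest of the branching arrays, it passed (adjusted p = 0.0322). Cdk1, the mitotic kinase itself, had 3461, 2924 and 3698 in branching, against 2726, 2125 and 2528 in non-branching, a difference of 0.45 ± 0.13 (adjusted p = 0.136).

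Ccnb2, a B-type cyclin gene, was the member of this role with the most signal, at 5454, 5005.5 and 5144 in branching, against 4731, 4511 and 4645 in non-branching. The regions did not overlap, yet the difference was small, 0.17 ± 0.08 (limma adjusted p = 0.402). Ccna2, the A-type cyclin gene of S phase and early mitosis, differed by 0.42 ± 0.18 (adjusted p = 0.311). On non-branching replicate 3 it had 1115, against 1612 to 2173 on the other arrays. Ccnf, whose F-box protein marks other proteins for breakdown, differed by 0.21 ± 0.13 (adjusted p = 0.514).

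The phosphatase Cdc25a, which frees Cdk partners from inhibitory phosphate, differed by 0.43 ± 0.13 (limma adjusted p = 0.142), and Wee1, the kinase that adds that phosphate to Cdk1, by 0.48 ± 0.28 (adjusted p = 0.489). Activator and inhibitor thus had means on the same side. Cdc25c, a further phosphatase of Cdk1, differed by 0.14 ± 0.16 (adjusted p = 0.760) with a probe set of less specific design, and its groups overlapped. Its other, dimmer and more specific probe set differed by 0.22 ± 0.35 (adjusted p = 0.833), also with overlap.

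Among 12 genes of the checkpoint, the anaphase promoting complex and the mitotic kinases, none was called, against 2.03% of all probe sets tested. At a limma unadjusted p under 0.05, 7 were higher in branching, against 6.92% of all probe sets tested. All 12 had a higher mean in branching, against 49.6% of all probe sets. In 7 all branching values lay above the non-branching ones, against 9.79% of all probe sets. The median log2 difference was 0.40. Mad2l1, which encodes the Mad2 protein that holds back the anaphase promoting complex, had 737.5, 788 and 1350.5 in branching, against 597, 464 and 529 in non-branching. Branching replicate 3 stood well above the rest, and without it the difference was 0.53. With all arrays it was 0.81 ± 0.24 (SE over 3 arrays a region, limma adjusted p = 0.147).

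Bub1, a checkpoint kinase of the kinetochore, had 384, 472 and 499 in branching, against 255, 289 and 302 in non-branching. The difference was 0.67 ± 0.23 (limma adjusted p = 0.200), and all branching values lay above the non-branching ones. Bub1 had a second tested probe set of a less specific design, at or below background on 5 of 6 arrays, that differed by 1.19 ± 0.74 (adjusted p = 0.523). Bub3, the partner that brings Bub1 to kinetochores, had 6489, 5554 and 5767.5 in branching, against 4972, 4458 and 4516.5 in non-branching, a difference of 0.35 ± 0.10 (adjusted p = 0.114). Ttk, the kinase that starts checkpoint signalling, differed by 0.27 ± 0.24 (adjusted p = 0.682), and its groups overlapped.

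Aurka, the Aurora kinase of the spindle poles, had 699, 688 and 907 in branching, against 462, 537 and 401.5 in non-branching. The regions were clear of each other, with a difference of 0.71 ± 0.19 (SE over 3 arrays a region, limma adjusted p = 0.117). Nek2, a centrosome kinase, had 850.2, 808 and 793 in branching, against 589, 535 and 509 in non-branching. Its 3 branching values lay close together, and the difference was 0.59 ± 0.15 (adjusted p = 0.0997).

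The chromosomal passenger complex, which corrects faulty attachments, is made of Aurkb, Incenp, Birc5 and Cdca8. Their differences were 0.25 ± 0.30 for the kinase Aurkb, 0.41 ± 0.16 for the scaffold Incenp, 0.40 ± 0.30 for Birc5 (survivin) and 0.44 ± 0.12 for Cdca8 (borealin), which was not among the 47 genes. None was called (limma adjusted p 0.102 to 0.771), against 2.03% of all probe sets tested. The arrays spread widely for Aurkb, with 1118, 819 and 739.5 in branching, against 440.2, 975 and 933 in non-branching, and without non-branching replicate 1 its difference was -0.12. The difference of Birc5 was 0.10 without non-branching replicate 2, 0.24 without branching replicate 3 and 0.68 without branching replicate 1. A second, dimmer probe set of Incenp differed by 0.23 ± 0.22 (adjusted p = 0.699).

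Cdc20, the activator of the anaphase promoting complex, had 5340.2, 4692 and 4947 in branching, against 3972, 3699 and 3725 in non-branching. The lowest branching value exceeded the highest non-branching value by more than the spread within non-branching. The difference of 0.39 ± 0.09 fell just outside the threshold (limma adjusted p = 0.0656), and it passed when only the brighter 50% of probe sets were tested (adjusted p = 0.0495) and with array weights (adjusted p = 0.0497). Ube2c, the enzyme that supplies ubiquitin to the complex, and Pttg1 (securin), a protein it destroys at anaphase, were read by less specific probe sets and differed by 0.10 ± 0.22 and 0.02 ± 0.16. Both changed sign when single arrays were left out. The 8 core subunits of the complex in the wider list had differences of -0.39 to 0.21 with a median of 0.02. Of these, 0 were called by limma, against 2.03% of all probe sets tested, a share at which few calls can occur among 8 genes. At an unadjusted p under 0.05, 1 of them was lower in branching, against 7.70% of all probe sets.

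The 10 genes for kinesins and spindle proteins had a median log2 difference of 0.47. In 7 of them all branching values lay above the non-branching ones, as in 9.79% of all probe sets tested. Prc1 (Entrez gene 233406), which bundles the antiparallel microtubules of the central spindle, was called. Its signal was 952, 983 and 896 on branching replicates 1 to 3, against 573, 438 and 552 on the non-branching replicates. The branching arrays lay close together and far above the non-branching ones. It rose by 0.87 ± 0.17 log2 units (SE over 3 arrays a region, limma adjusted p = 0.0314), a 1.82-fold difference. The branching mean was 944 ± 44.4, and the non-branching mean 521 ± 72.4 (SD, n = 3 each). The call was lost with any 1 array left out (adjusted p 0.0541 to 0.109) and with the replicate number as a block (adjusted p = 0.0934), while the difference stayed between 0.75 and 0.94.

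Racgap1 and Kif23 form centralspindlin, which gathers at the same bundles and sets the plane of cleavage. Racgap1 (Entrez gene 26934) had 808, 861 and 1007.5 in branching, against 535, 537 and 579 in non-branching. The groups were separated by more than the range of the non-branching values, with a difference of 0.69 ± 0.16 (limma adjusted p = 0.0647). It passed when only the brighter 50% of probe sets were tested (adjusted p = 0.0436) and with array weights (adjusted p = 0.0454). Kif23, the kinesin of the pair, had 1698, 1258.5 and 1444 in branching, against 1108, 869 and 1034 in non-branching, a difference of 0.54 ± 0.16 (adjusted p = 0.134).

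Kif4, a chromosome-bound kinesin that works with Prc1, had 486, 529.7 and 428 in branching, against 256, 341 and 320 in non-branching. The difference was 0.66 ± 0.22 (limma adjusted p = 0.204), with no overlap. Kif20a, a kinesin of cytokinesis, differed by 0.41 ± 0.12 (adjusted p = 0.128) with a probe set of less specific design and by 0.36 ± 0.24 on its other one (adjusted p = 0.544). Ect2, which is activated by centralspindlin and starts the contractile ring, was in the wider list and had 787, 656 and 727 in branching, against 486, 399 and 380.2 in non-branching, a difference of 0.78 ± 0.18 (adjusted p = 0.0696). These proteins of the central spindle were set side by side after their values were seen.

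Kif2c, a kinesin that takes microtubules apart at the centromere, had 1429, 1665 and 1616 in branching, against 961, 1168 and 1113 in non-branching. It differed by 0.54 ± 0.13 (limma adjusted p = 0.0773), and the groups did not overlap. Kif11, the motor that pushes the spindle poles apart, showed overlapping groups and a difference of 0.12 ± 0.19 (adjusted p = 0.825). Kif22, a kinesin on chromosome arms read by a less specific probe set, had 2016.5, 4062 and 3316 in branching, against 2514, 2309 and 2466 in non-branching. Branching replicate 1 thus lay below every non-branching value (0.31 ± 0.22, adjusted p = 0.581).

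Stmn1 (stathmin), which destabilises microtubules, had the most signal of the spindle genes, with 13251.5, 13017 and 13616 in branching, against 11567.5, 9908 and 10336 in non-branching. The groups did not overlap, and the difference was 0.33 ± 0.08 (limma adjusted p = 0.0943, and 0.0458 with quantile normalization). Stathmin is also abundant in young neurons. Of the 3 genes tested from the neuronal list, Tubb3 differed by 0.16 (adjusted p = 0.563), Stmn2 by -0.23 (adjusted p = 0.617) and Sox10, a neural crest gene, by -1.05 (adjusted p = 0.00974), and their part in the Stmn1 signal was not tested. Tacc3, a microtubule protein of the spindle, differed by 0.26 ± 0.29 (adjusted p = 0.750).

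**Figure D5:**
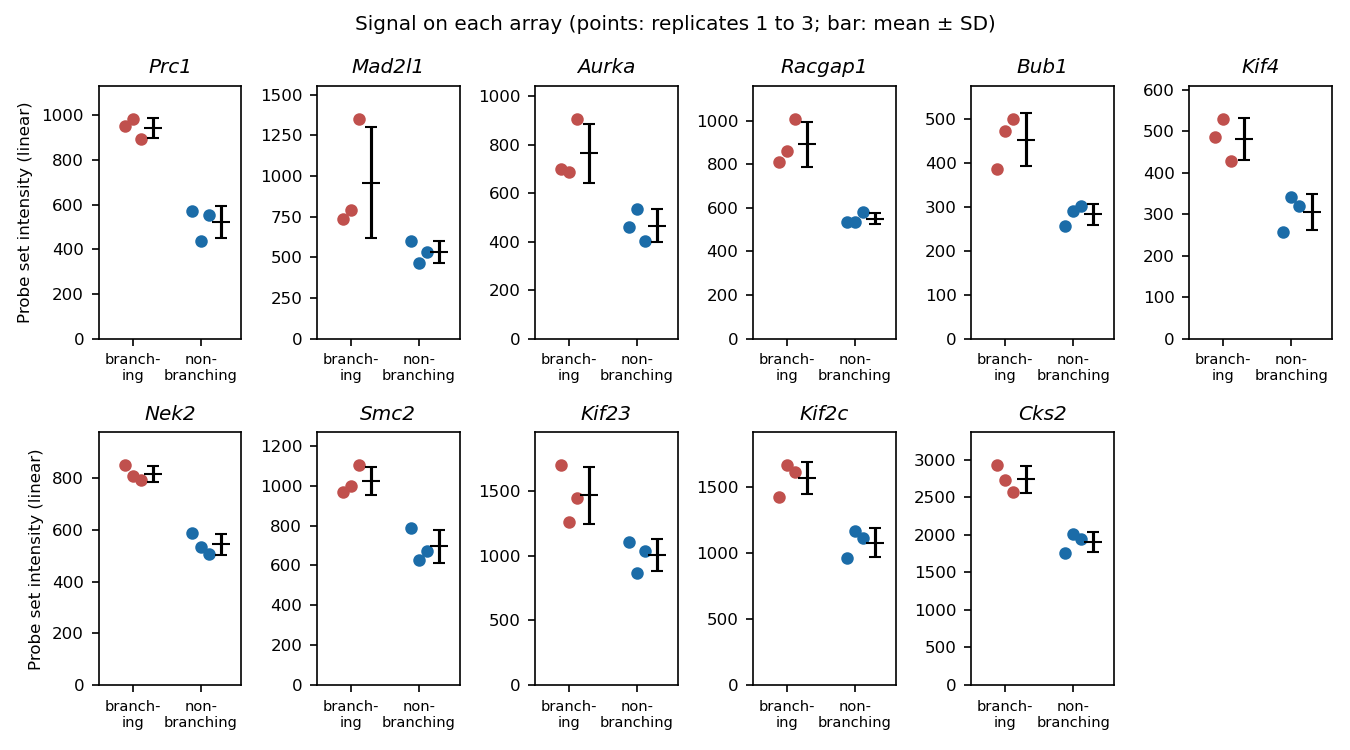
Signal (probe set intensity, linear scale, each panel from 0) of the 11 mitosis genes that differed by more than 0.5 on the log2 scale, on the 3 branching (red, left) and 3 non-branching (blue, right) arrays. Black bars are the mean ± SD. In every panel the 3 red points lie above the 3 blue ones, and Prc1 and Cks2 are the called genes.

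Of the 3 centromere genes none was called by limma, against 2.03% of all probe sets tested. Cenpe had an unadjusted p under 0.05, in the lower direction, as did 7.70% of all probe sets. Of the 3, 1 had a higher and 2 a lower mean in branching. This role was not tested against the others. Cenpc1, a core protein of the inner kinetochore, had 372, 451.5 and 409.6 in branching, against 548.5, 476 and 501 in non-branching. Every branching value was below every non-branching value, as in 11.0% of all probe sets tested, and the difference of -0.31 ± 0.19 did not pass (SE over 3 arrays a region, limma adjusted p = 0.517). Cenpa, the histone H3 variant that marks the centromere, had 1285, 1076 and 1144 in branching, against 943, 847 and 1303 in non-branching, where replicate 3 was the highest of all arrays (0.20 ± 0.18, adjusted p = 0.673).

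Cenpe, a kinesin of the kinetochore, had 29, 71.7 and 21.8 in branching, against 79.7, 173 and 104.3 in non-branching. These values were below the background level of 147 on 5 of the 6 arrays, so no fold is given (limma adjusted p = 0.302). The array that rose above it was non-branching replicate 2, which also had the highest control signal. Whether that signal played a part in the value was not tested.

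The 6 genes of chromosome structure had a median log2 difference of 0.37. In 3 of them all branching values lay above the non-branching ones, as in 9.79% of all probe sets tested. Smc2, a core subunit of condensin, had 968, 996 and 1101 in branching, against 786.5, 628 and 671 in non-branching. The regions did not overlap, and the difference was 0.56 ± 0.15 (SE over 3 arrays a region, limma adjusted p = 0.111). Its partner Smc4 had 1453, 1798 and 2053 in branching, against 1546, 1332 and 1360.1 in non-branching, with branching replicate 1 inside the non-branching range (0.31 ± 0.15, adjusted p = 0.373). Ncaph, a non-SMC subunit of the same complex from the wider list, differed by 0.32 ± 0.22 (adjusted p = 0.574).

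The cohesin genes Smc3 and Rad21 differed by 0.43 ± 0.19 (limma adjusted p = 0.337) and 0.20 ± 0.16 (adjusted p = 0.618). Without branching replicate 1 these were 0.24 for Smc3 and 0.34 for Rad21, and Rad21 was 0.11 without branching replicate 2 or non-branching replicate 2. Of their partners in the wider list, Stag1 and Stag2 differed by -0.26 and -0.11, and Pds5b and the loader Nipbl by 0.32 and 0.25. None of these partners was called, against 2.03% of all probe sets tested. Top2a, which untangles sister DNA, had 1209.9, 985.5 and 1281 in branching, against 908, 863 and 724.5 in non-branching, a difference of 0.48 ± 0.16 (adjusted p = 0.199). Mki67, the gene of the proliferation marker Ki-67, spread within both regions, with 1001, 1711 and 1995.5 in branching, against 1732.5, 941 and 1162 in non-branching. It differed by 0.28 ± 0.28 (adjusted p = 0.719; 0.08 to 0.58 with 1 array left out), and its dim, less specific probe set by -0.09 ± 0.34.

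Foxm1, the transcription factor that activates many genes of G2 and M, was read by 2 probe sets. The brighter one, of a less specific design, had 1859, 2242 and 2243 in branching, against 1722, 1955 and 1604 in non-branching. Its groups overlapped, and the difference was 0.26 ± 0.13 (limma adjusted p = 0.379). The other probe set differed by 0.58 ± 0.34 (adjusted p = 0.480).

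Further genes of mitosis were taken from a wider list of 96, of which 54 had a probe set and 53 were tested. In branching 3 rose, none fell (1 had an unadjusted p under 0.05 in that direction) and the other 50 missed the limma threshold (5.66% called, against 2.03% of all probe sets tested). The mean was higher in branching for 40 of the 53, the median log2 difference was 0.23, and 14 (26.4%) had all branching values above all non-branching values, against 9.79% of all probe sets. Rcc1, the chromatin-bound exchange factor that loads Ran with GTP, had 1139.7, 861 and 928 in branching, against 529, 462 and 379 in non-branching, and rose by 1.10 ± 0.19 (SE over 3 arrays a region, limma adjusted p = 0.0211). Ran, the small GTPase of spindle assembly and nuclear transport, rose by 0.42 ± 0.08 (adjusted p = 0.0229). Plk2, a polo-like kinase named for its kinship with the mitotic kinase Plk1 but induced in G1 and by stress, rose by 1.37 ± 0.12 (adjusted p = 0.00112). Plk1 itself differed by 0.26 (adjusted p = 0.374). With 1 array left out, Plk2 was called each time. Rcc1 lost its call without branching replicate 1 or 3 or non-branching replicate 2 or 3 (adjusted p 0.0676 to 0.0833). Ran kept its call only without branching replicate 1 (adjusted p = 0.0324), and lost it with the replicate number as a block (adjusted p = 0.0781).

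The DNA replication genes, which serve an earlier part of the cell cycle, were read on the same arrays. Among 33 genes with a test, 3 were called higher in branching and none lower by limma (0 had an unadjusted p under 0.05 in that direction). The called share was 9.09%, against 2.03% of all probe sets tested. The median log2 difference was 0.39, and 20 (60.6%) had groups that did not overlap and were higher in branching, against 9.79% of all probe sets. Rrm2, a subunit of ribonucleotide reductase, Pcna, the sliding clamp, and Tk1, thymidine kinase, rose by 0.99 ± 0.13 (limma adjusted p = 0.00661), 0.87 ± 0.16 (adjusted p = 0.0257) and 0.78 ± 0.13 (adjusted p = 0.0160). No test was made of the difference between the lists.

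Genes of other cell types moved over the same arrays. Of 8 red blood cell genes tested, 3 were called higher in branching and 0 lower, with a median log2 difference of 0.43. Over all probe sets tested, 0.902% were called higher and 1.13% lower. The globin gene Hbb-bh1 had overlapping groups and differed by 0.12 (limma adjusted p = 0.864). The summed signal of the 9 red blood cell genes on the array was 137254 to 152414 in branching, against 88630 to 96173 in non-branching, and it came mostly from the globin genes Hba-a1, Hba-x and Hbb-y. Of the defining genes, Epb42 was below background on all arrays, and Klf1, Gata1 and Alas2 had overlapping groups. Slc4a1, the anion exchanger of the red cell membrane, had 654, 710.5 and 769.5 in branching, against 417, 329.9 and 421 in non-branching, and differed by 0.88 without overlap (limma adjusted p = 0.0526). All 6 mesenchyme and matrix genes had a lower mean in branching, and 4 of them were called. All 4 smooth muscle genes tested were called lower, with summed signals of 2102 to 2715 in branching, against 5855 to 7121 in non-branching. Of 5 cartilage genes tested, 3 were called lower in branching, with a median of -0.82 and summed signals for the 6 genes on the array of 2727 to 3267 in branching, against 5514 to 6081 in non-branching. All 7 endothelial genes had a lower mean in branching, 1 of them called. Of 7 epithelial genes 0 were called by limma (1 had an unadjusted p under 0.05 in each direction), with a median of 0.06. Sftpc, the surfactant gene of distal epithelium, differed by 1.99 (adjusted p = 0.0807) and Foxa2 by -0.62 (adjusted p = 0.0751). Of 5 leukocyte genes, Ptprc and Lyz2 were below background on all arrays, and none of the 3 tested was called by limma (0 had an unadjusted p under 0.05). Csf1r and Mpo were higher in branching without overlap, by 0.49 (adjusted p = 0.404) and 0.98 (adjusted p = 0.374). Such a lack of overlap was seen in 9.79% of all probe sets tested. Mpo was read by a less specific probe set, above background on 3 branching arrays but only 1 non-branching array. Cd68 differed by -0.56 (adjusted p = 0.625). The summed signal of the list was 878 to 904 in branching, against 709 to 831 in non-branching. The part of these cell types in the signal of the mitosis genes was not tested.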

How the data were processed

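The deposited table holds 1 intensity per probe set and array on a linear scale. The sources used here do not give how the authors computed these intensities. The trimmed mean of each array was 500, so the deposited scaling was kept. Genes were named from the platform's annotation table, in which 10833 of 12422 probe sets other than controls had 1 symbol, 396 several and 1193 none. Values below 16 were set to 16, log2 was taken, and probe sets in the dimmest 25% by mean were dropped, so that 9316 were tested, among them 47 of the 53 member probe sets and at least 1 for each of the 41 genes. limma 3.58.1 in R 4.3.3 was fitted to the 2 regions with a variance trend (eBayes, two-sided), with Benjamini-Hochberg adjustment over all 9316. The floor makes differences of dim genes too small. The background level is the 95th percentile of 114 values from 19 bacterial and yeast control probe sets. No depth applies to arrays, and their number limits precision.

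The titles number the replicates 1 to 3 in each region. Deviations of same-numbered samples from their region's mean correlated at -0.01 to 0.01, and those of differently numbered samples at -0.05 to 0.05. With 3 arrays a region, these correlations cannot show whether same-numbered samples came from the same lungs, and the labels do not say. The main fit has no block, and a fit with the replicate number as a block was run as an alternative.

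The members and lists were chosen with earlier results of these data known. The values of all arrays are given for called members, for members whose groups did not overlap with a difference above 0.5, and for the member with the most signal in each role, besides others. From the wider list the symbol Rod1 was left out because the gene table gives it to an unrelated gene. Promoter windows and coordinates are RefSeq's on GRCm38.p6, and 31 of the 41 genes had one. The window of Kif2c, which begins inside the gene, is not shown. It is counted among the 31 windows, and its match to TTTGAA on the other strand, at -103 to -98, among the 20.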

Additional observations from a re-analysis of the deposited data

How the results depend on the processing

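The median difference of the mitosis genes stayed between 0.37 and 0.44 under every alternative run, with 37 to 39 of 40 or 41 genes higher in branching, and 36 of 38 with more specific probe sets only. The calls did not hold as well. The 2 calls, Prc1 and Cks2, became 0 with the replicate number as a block, 0 without the filter on dim probe sets, 0 without a variance trend, 4 with the dimmer 50% left out, 4 with array weights and 7 at an adjusted p under 0.10. With 1 array left out the count was 0 to 1, the 1 being Cks1b without branching replicate 1. Leaving out an array also leaves fewer samples. The cause of the other changes was not tested. Over all probe sets, 84 were higher and 105 lower, against 44 and 70 with the replicate block, 38 and 62 without the filter, 5 and 17 without the trend, 164 and 195 at an adjusted p under 0.10, and 16 to 69 and 38 to 98 with 1 array left out, fewest higher without branching replicate 3 and fewest lower without non-branching replicate 3. The 3 calls of the wider mitosis list became 2 with the replicate block (Ran lost its call), 1 without the filter and 0 without the trend, and 1 to 2 with 1 array left out, 1 where that array was branching replicate 3 or non-branching replicate 2 or 3. Of the single genes, 3 changed sign, none of them called: with 1 array left out Ube2c ranged from -0.05 to 0.21, Pttg1 from -0.14 to 0.15 (and -0.08 without branching replicate 3) and Aurkb from -0.12 to 0.45. Signals near the background level of 147, as for Cenpe, limit what can be read.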
